A study of Mus musculus with 4 samples.

Results

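Contractile genes of myofibroblasts were followed in H3K4me3 HiChIP-seq of MLg cells, a mouse lung fibroblast line. The members are 10 genes (Acta2, Tagln, Cnn1, Tpm1, Myl9, Actg2, Myh9, Cald1, Actn1 and Vim), of 21754 protein-coding genes on chromosomes 1 to 19 and X. They were chosen by the function of their products, with no measured value in the rule but with earlier results of these data known, and the promoter of each was the 5′ end of its GENCODE gene in mm10. HiChIP-seq joins fragments that lie close in the nucleus and then precipitates a histone mark, so that each read pair has 2 ends at places that were in contact, and ends pile up where the mark sits. H3K4me3 marks the start of active genes. The study had 4 libraries, 1 per condition, from transfected cells harvested after 24 h. Control is the library labelled as control without TGFB1. TGFB1 received recombinant human TGFB1 at 5 ng/ml for the last 4 h, beginning 20 h after transfection. In TGFB1+miR-9-LOF the same treatment followed transfection of an antagomiR against miR-9-5p at 60 nM, and miR-9-LOF had that antagomiR without TGFB1. The treatment text names a negative control antagomiR at the same concentration. The labels of Control and TGFB1 name no antagomiR, but the paper describes the HiChIP-seq cells as given either a control or the miR-9 antagomiR. All came from 1 transfected cell line with 1 library per condition, so cell culture, transfection and library preparation cannot be told apart from the treatment.

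Fibroblasts that meet TGFB1 become myofibroblasts, which build thick actin bundles and pull on the matrix around them. Contraction is driven by nonmuscle and smooth muscle myosin sliding on actin filaments that tropomyosin, caldesmon and calponin cover and alpha-actinin ties together. Many of these genes are bound by serum response factor at a short element named the CArG box, with coactivators that enter the nucleus when free actin is used up.

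The promoter windows of RefSeq (build GRCm38.p6, 250 bases before the start and 50 after it) held 8 members, and not Tagln or Actg2. The 5 windows below are shown because they span the range of the mark over the members, from heavily marked (Tpm1, Actn1, Vim) to intermediate (Acta2) and weakly marked (Cnn1). Capitals mark CG dinucleotides, and each sequence is written 5′ to 3′ on the strand of the gene.
Tpm1, chr9:67049164-67049463, minus strand: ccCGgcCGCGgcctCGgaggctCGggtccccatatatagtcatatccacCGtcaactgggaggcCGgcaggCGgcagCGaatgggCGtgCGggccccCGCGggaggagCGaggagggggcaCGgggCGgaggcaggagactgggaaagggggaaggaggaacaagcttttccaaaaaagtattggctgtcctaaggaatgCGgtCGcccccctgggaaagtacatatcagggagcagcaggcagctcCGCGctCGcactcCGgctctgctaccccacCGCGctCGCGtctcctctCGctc
Actn1, chr12:80260314-80260613, minus strand: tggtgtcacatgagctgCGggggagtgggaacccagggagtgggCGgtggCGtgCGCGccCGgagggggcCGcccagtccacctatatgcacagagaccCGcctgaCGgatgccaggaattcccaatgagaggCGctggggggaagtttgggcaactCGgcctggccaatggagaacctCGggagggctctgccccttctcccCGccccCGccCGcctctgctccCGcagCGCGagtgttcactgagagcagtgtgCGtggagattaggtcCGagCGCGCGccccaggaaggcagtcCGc
Vim, chr2:13574061-13574360, plus strand: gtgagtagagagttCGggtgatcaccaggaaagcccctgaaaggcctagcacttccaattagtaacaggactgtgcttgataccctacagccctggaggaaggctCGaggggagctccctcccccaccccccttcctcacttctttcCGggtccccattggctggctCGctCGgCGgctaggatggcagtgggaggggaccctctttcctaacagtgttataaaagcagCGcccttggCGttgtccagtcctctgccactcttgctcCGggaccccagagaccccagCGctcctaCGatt
Acta2, chr19:34255324-34255623, minus strand: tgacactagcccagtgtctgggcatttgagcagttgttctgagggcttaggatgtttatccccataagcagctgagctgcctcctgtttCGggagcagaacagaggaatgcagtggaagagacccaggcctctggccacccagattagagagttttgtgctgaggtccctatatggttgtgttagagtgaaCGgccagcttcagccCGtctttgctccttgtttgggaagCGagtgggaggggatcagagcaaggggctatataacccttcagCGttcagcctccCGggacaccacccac
Cnn1, chr9:22099003-22099302, plus strand: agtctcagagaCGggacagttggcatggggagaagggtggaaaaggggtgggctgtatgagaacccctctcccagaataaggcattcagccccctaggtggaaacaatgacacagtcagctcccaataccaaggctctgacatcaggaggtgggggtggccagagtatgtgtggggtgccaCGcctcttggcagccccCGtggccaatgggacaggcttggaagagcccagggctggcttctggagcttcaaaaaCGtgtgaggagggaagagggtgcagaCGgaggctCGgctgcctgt

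Tpm1 had 27 CG in its window and Actn1 24, against a median of 14 over the 16433 coding genes in the table. Myl9 had 20 and Myh9 19. Vim had 11, and Acta2, Cnn1 and the first Cald1 window had 6 each. The marked promoters defined below had a median of 24, and all those under that limit had a median of 10. Vim, although heavily marked, was nearer to the second, but within the quartiles of 4 and 25 over all genes in the table. The windows rest on RefSeq starts, which lie 384 bases from the GENCODE start in Vim, 217 in Acta2 and 193 in Tpm1, and at most 44 in the other members, leaving aside a second Cald1 window at a start far inside the gene.

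A CArG box, as an exact match to CC, 6 bases that are A or T, and GG, was searched on both strands and found in the window of Myl9, as CCTAATAAGG at chr2:156775303-156775312, from base -161 to -152 relative to the RefSeq start, and in no other member's window. Near matches were not searched, and 1.55% of all windows held an exact match. TATAAA stood in the windows of Myh9, Vim and the second window of Cald1, of 12.8% of all windows, and in Vim it began at base -32. CATTCC, the core bound by TEAD factors, stood in the windows of Acta2, Tpm1 and Cald1, of 13.2% of all. CAGAC, a sequence bound by SMAD proteins, stood in those of Acta2, Cnn1, Myh9 and Cald1, of 48.5% of all. Both strands were searched for each, and no matches overlapped. The shares of all windows take a single window per gene, whereas both windows of Cald1 were searched, and its TATAAA is only in the second. The matches describe letters in these windows and no binding.

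Depth ran from 10864558 valid pairs in TGFB1 to 15568047 in miR-9-LOF, and contacts were counted among 4793354 to 6692306 pairs on 1 chromosome from 20 kb to 2 Mb apart. Wherever 4 values follow each other, Control comes first, then TGFB1, then TGFB1+miR-9-LOF, and the antagomiR without TGFB1 last. A level is the number of pair ends within 2 kb of the gene start, divided by the median over all coding promoters of the same library, which was 103, 68, 80 and 88 ends. A promoter was called marked at 4 times the median or more in Control, which 4165 promoters (19.1%) reached. The share of all pair ends that fell in the windows of these promoters was 7.60%, 5.56%, 3.34% and 3.86%. The mark thus stood out most from its surroundings in Control, less in TGFB1 and least in the libraries with the antagomiR against miR-9. These windows were chosen by their ends in Control. How much of this is the precipitation and how much the cells cannot be told apart with 1 library each. Intervals below are 95% Poisson or binomial intervals and cover counting error only. Of 10 fibroblast markers, Pdgfra and Col1a1 were marked in Control. Twist1, Pdgfrb, Fn1, Col1a2 and Tbx4 stood between 1.23 and 3.53 there. Thy1, Col3a1 and Tcf21 stood below the median coding promoter, at 0.91, 0.68 and 0.48. The summed level of the fibroblast list ran from 46.7 to 88.9 RPM (ends scaled to the size of the library) over the libraries. None of the 6 epithelial, 4 endothelial, 4 immune and 6 striated muscle markers was marked, with summed levels of 14.0 to 15.7, 7.69 to 9.13, 7.10 to 8.44 and 8.37 to 10.2 RPM. Of the 5 smooth muscle markers Smtn was marked, Lmod1 stood at 1.41, and Myocd, Des and Myh11 stood below the median coding promoter, at 0.91, 0.71 and 0.69.

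The 10 contractile promoters spread from heavily marked to no more than the median promoter. Their median level in Control was 3.73, and 4 of 10 were marked, against 19.1% of all coding promoters. Myh9, which encodes the heavy chain of nonmuscle myosin, starts at chr15:77842175 and had 735, 305, 268 and 302 ends. Its level in Control was 7.14 (6.63 to 7.67). Vim, the intermediate filament protein of mesenchymal cells, starts at chr2:13573927 and had 690, 409, 275 and 333 ends. Its level was 6.70 (6.21 to 7.22) in Control and 6.01 (5.45 to 6.63) in TGFB1, where its interval overlapped that of Actn1.

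Actn1, an alpha-actinin that crosslinks actin filaments at adhesions and stress fibres, starts at chr12:80260371 and had 684, 339, 236 and 347 ends. Tpm1, a tropomyosin that winds along the actin filament, starts at chr9:67049406 and had 680, 337, 248 and 355 ends. Their levels in Control, 6.64 and 6.60, and those of Myh9 and Vim had overlapping intervals, so these 4 cannot be ranked, but all stood above the next member, Cald1. The levels were not divided by the number of MboI sites, where the chromatin was cut. The window of Vim held 13 sites and that of Cald1 held 7, and per site Vim did not stand above Cald1. All 4 were highest in Control.

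Cald1, the actin and myosin binding protein caldesmon, starts at chr6:34598500 and had 390, 214, 182 and 225 ends. Acta2, the smooth muscle alpha-actin by which myofibroblasts are recognised, starts at chr19:34255590 and had 378, 211, 162 and 208 ends. Myl9, a regulatory light chain of myosin, starts at chr2:156775420 and had 287, 148, 118 and 169 ends. Cald1 at 3.79 (3.42 to 4.18) and Acta2 at 3.67 (3.31 to 4.06) lay just under the limit for marked promoters in Control and overlapped each other, and Myl9 followed at 2.79 (2.47 to 3.13).

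Tagln, Cnn1 and Actg2 had the lowest levels in Control. Tagln, the actin-bundling protein transgelin, starts at chr9:45936058 and had 154, 124, 94 and 134 ends. Cnn1, calponin, starts at chr9:22099216 and had 144, 117, 114 and 108 ends. Actg2, the gamma-actin of visceral smooth muscle, starts at chr6:83536265 and had 83, 74, 99 and 86 ends. Tagln (1.27 to 1.75) and Cnn1 (1.18 to 1.65) had overlapping levels in Control, and Actg2 at 0.81 (0.64 to 1.00) was the only member under the median coding promoter there. It was no higher than 1.24 (1.01 to 1.51) in any library.

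**Figure D1:**
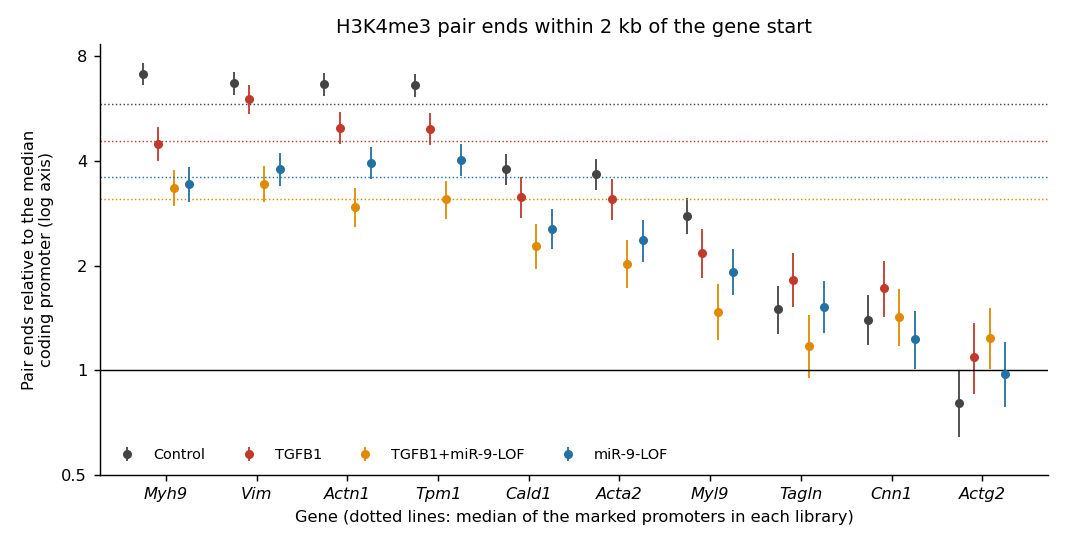
Pair ends within 2 kb of each gene start, divided by the median coding promoter of the same library, on a log axis. Points are single libraries with 95% Poisson intervals, and dotted lines give the median of the marked promoters in each library. Myh9, Vim, Actn1 and Tpm1 lie between 6.60 and 7.14 in Control, and Actg2 lies at 0.81.

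The rank of a promoter among all coding promoters does not depend on the scale of a library. Myh9 stood above 94.2%, 89.9%, 92.3% and 89.2% of coding promoters, and Vim above 93.0%, 95.3%, 92.9% and 91.5%. Acta2 stood above 78.5%, 80.3%, 77.4% and 78.3%, and Cald1 above 79.4%, 80.7%, 81.4% and 80.7%. The place of these promoters in the order thus moved by a few percentage points, although their level over the median fell by more. Tagln ranged from 56.5% in TGFB1+miR-9-LOF to 65.8% in TGFB1, Cnn1 from 57.1% to 64.5%, and Actg2 from 44.4% in Control to 58.8% in TGFB1+miR-9-LOF.

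Within 10 kb of the starts the ends peaked just downstream at most marked members. In 500-bp bins read along the gene, the highest bin of Control was centred 750 bp downstream of the start in Myh9, Actn1 and Acta2, 1250 bp downstream in Tpm1, 250 bp downstream in Cald1 and Myl9 and 250 bp upstream in Vim. The peak of Myh9 was 12.5, 7.13, 4.25 and 4.27 RPM. Ends can fall only near MboI sites, of which the windows held 5 (Myl9) to 13 (Cnn1 and Vim), and the number of sites limits where a peak can be seen. Vim and Actn1 were compact, with 71.4% and 69.9% of the ends of the surrounding 20 kb inside the window of 2 kb on either side in Control, against 39.4% in Tpm1, where 85.0% of the 20 kb's ends lay downstream.

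**Figure D2:**
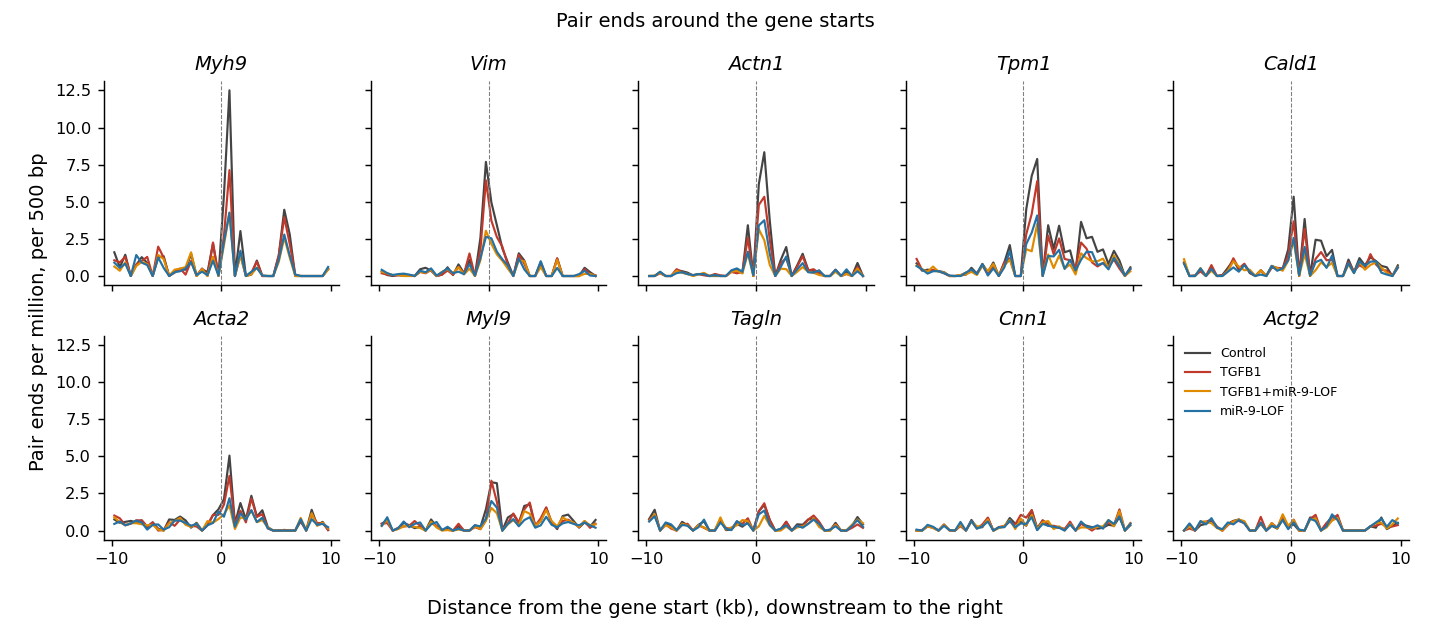
Pair ends (RPM) in 500-bp bins within 10 kb of each gene start, with transcription to the right and 1 line per library. Myh9 peaks at 12.5 RPM in Control, 750 bp downstream of its start, and no bin of Cnn1 exceeds 1.43 or of Actg2 1.10 in any library.

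Several members have more than 1 group of annotated starts. Tpm1, whose products are made from alternative starts, had a second group 5.44 kb downstream at chr9:67043962, with 495, 215, 202 and 247 ends, a level of 4.81 (4.39 to 5.25) in Control, so both were marked. Cald1 was highest at its first start. The starts 111 kb and 147 kb downstream stood at 1.25 (1.05 to 1.49) and 0.97 (0.79 to 1.18), near the median promoter. Myh9 likewise had 0.93 and 0.74 at starts 61.0 kb and 72.4 kb inside the gene, and the second start of Actg2, 8.28 kb downstream, had 0.75.

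Contacts of a promoter are the pairs from 20 kb to 2 Mb apart with an end within 10 kb of its start, again divided by the median coding promoter, which had 170.5, 115, 130 and 143 contacts. No coding gene starts within 10 kb of a member, and the nearest is Ecsit, 13.8 kb upstream of Cnn1. The median member had 2.10 times the contacts of the median coding promoter in Control, against 2.40 for the median marked promoter. Tpm1 had the most in every library, with 748, 373, 342 and 436 contacts. This was a level of 4.39 (4.08 to 4.71) in Control, above 98.6% of coding promoters, and 3.24, 2.63 and 3.05 in the other libraries. Contacts were not corrected for how often a place was read. Within 10 kb of its start Tpm1 also had the most ends of any member in Control, 1726.

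Myh9 had 567, 339, 282 and 318 contacts and Actn1 513, 243, 153 and 277. The level of Actn1 went from 3.01 (2.75 to 3.28) in Control and 2.11 (1.86 to 2.40) in TGFB1 to 1.18 (1.00 to 1.38) in TGFB1+miR-9-LOF, and stood at 1.94 (1.72 to 2.18) in miR-9-LOF. Its rank went from above 93.6% of coding promoters in Control to 88.1%, 61.3% and 88.2%, a wider range than that of its pair ends (92.9%, 92.0%, 89.1% and 92.5%). Cald1 had 430, 236, 237 and 265 contacts and Vim 401, 226, 207 and 220.

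Acta2 had 316, 189, 215 and 239 contacts, a level of 1.85, 1.64, 1.65 and 1.67, the narrowest relative spread among the members with a level above 1.5 in every library. Myl9 had 312, 200, 207 and 215 and overlapped Acta2 in every library. Tagln (189, 117, 120 and 140), Actg2 (176, 143, 156 and 183) and Cnn1 (152, 121, 141 and 140) had about as many contacts as the median promoter, from 0.89 for Cnn1 in Control to 1.28 for Actg2 in miR-9-LOF.

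**Figure D3:**
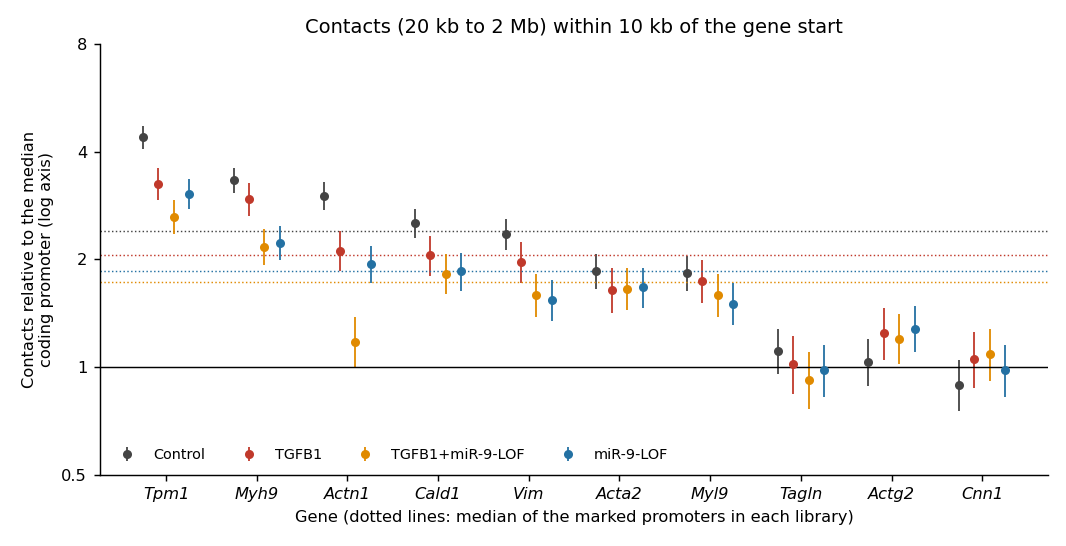
Contacts of each promoter divided by the median coding promoter of the same library, on a log axis, with 95% Poisson intervals for each single library. Tpm1 is highest in all 4 libraries, and Actn1 goes from 3.01 in Control to 1.18 in TGFB1+miR-9-LOF.

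The contacts reached different distances and sides. Over the 4 libraries pooled, 65.5% of the contacts of Myh9 and 55.4% of those of Actn1 went to places under 100 kb from the start, above 99.7% and 95.6% of the 20877 coding promoters with enough pairs, whose median was 36.5%. Vim had 80.9% of its contacts upstream, above 99.7% of coding promoters, and Acta2, Tpm1, Myh9 and Cnn1 had 63.4% to 66.4% upstream. Actn1 was balanced, at 51.5%. Contacts with marked promoters made up 15.2% in Actg2 and 11.1% in Tagln, but 0.17% in Actn1, 0.43% in Cald1 and 1.74% in Tpm1, against a median of 3.62%. Myh9, second in contacts in Control, had 7.24%.

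Places that a promoter met more often than expected were looked for in 10-kb bins, from the 4 libraries pooled, against an expectation that took in the distance and how often each place was read at all. The fall with distance was taken over all chromosomes together, with no term for local domains. Adjacent bins were tested singly and were not shown to be separate contacts. Of 396 bins tested for each member, 35 in all were strong partners at an adjusted p of at most 0.05 and at least 10 pairs, in 7 members. They lay 25 to 335 kb away, 29 upstream and 6 downstream, and 4 of 35 held the start of a coding gene. Vim held 11 of the 35 and Actn1 10. Only the members were searched, so whether other coding promoters have as many such bins, or as many upstream, was not tested. Summed over all bins of a member, the pairs ran from 0.59 times the expectation in Actg2 to 1.16 in Vim. Tpm1, first in contacts, was at 0.83 and Actn1 at 1.09. With Control alone 12 bins in Tpm1, Myh9, Actn1 and Vim passed, all among the 35, so the partners of Acta2, Tagln and Cald1 rest on the pool. The values per library below describe bins that were picked from the same pairs.

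The strongest partner of Actn1 was chr12:80370371-80380370, 115 kb upstream and within Dcaf5, with 73 pairs against 17.3 expected (adjusted p = 8.77e-20 by an exact Poisson test on pooled pairs). The libraries gave 31, 22, 5 and 15 pairs, and the bin was 3.87, 5.83, 2.67 and 3.70 times its expectation in each. The next bins lay beside it, 105 and 85 kb upstream, with 51 and 50 pairs against 13.3 and 15.7. In all, 10 bins on both sides of the start took 47.4% (43.1 to 51.7, Wilson), 49.8% (43.6 to 56.0), 44.4% (36.8 to 52.4) and 39.4% (33.8 to 45.3) of the contacts of Actn1. In TGFB1+miR-9-LOF, where Actn1 had the fewest contacts, the share in these bins had an interval that overlapped that of TGFB1.

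Vim had 11 strong partners, all 145 to 305 kb upstream, and 10 of them lay inside Cubn, with no coding start in the bin, and the other held the start of Rsu1. The strongest was chr2:13283927-13293926, 285 kb upstream within Cubn, with 34 pairs against 5.75 expected (adjusted p = 1.13e-12 by the exact Poisson test), and 13, 8, 6 and 7 in the libraries. The bins 155 and 185 kb upstream followed with 45 and 41 pairs against 10.9 and 9.33. Bins of Vim that were not strong differed by side as well. At 105 kb there were 24 pairs against 11.7 upstream and 2 against 12.9 downstream. Together the 11 bins took 32.2% (27.8 to 37.0), 38.2% (32.1 to 44.7), 24.9% (19.5 to 31.2) and 30.6% (24.8 to 37.0) of the contacts of Vim. The intervals of TGFB1 and TGFB1+miR-9-LOF did not overlap, that of Control overlapped both, and the difference was not tested. In every other member with strong partners the intervals of TGFB1 and TGFB1+miR-9-LOF overlapped.

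Tpm1 had 5, all upstream, in a stretch where the nearest coding start other than its own, Lactb, lay 129 to 239 kb from the bins. The strongest was chr9:67209406-67219405, 165 kb upstream, with 96 pairs against 30.4 expected (adjusted p = 4.48e-18, exact Poisson test). It had 34, 23, 17 and 22 pairs, 2.82, 4.10, 3.07 and 3.11 times the expectation. The bins 105 and 155 kb upstream had 69 and 35 pairs against 32.0 and 12.5. The share of the contacts of Tpm1 in its 5 bins was 20.4%, 19.6%, 18.0% and 17.5%, with overlapping intervals.

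Myh9 had 3, at 45, 75 and 65 kb upstream before Txn2, with 185, 107 and 102 pairs against 99.6, 54.6 and 63.8 expected. The first, chr15:77882175-77892174, had 75, 46, 30 and 34 pairs. The 3 bins held 26.6% (23.1 to 30.4) of its contacts in Control, 32.0% (27.3 to 37.2) in TGFB1, 23.4% and 23.1% in the LOF libraries. Cald1 had 3, namely 85 kb upstream with 66 pairs against 36.6, 275 kb downstream at the start of Cyren with 27 against 12.2, and 155 kb downstream, inside Cald1 itself near its most distant start, with 30 against 14.9.

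Acta2 met the bin that holds the start of Fas, the death receptor gene, 35 kb upstream at chr19:34285590-34295589, with 97 pairs against 64.2 expected (adjusted p = 0.011, exact Poisson test). The libraries gave 28, 16, 31 and 22 pairs, at 1.06, 1.54, 2.36 and 1.52 times the expectation, so Control showed no excess there. A bin 305 kb upstream in Ifit2 had 13 pairs against 3.96. Tagln had a single strong partner, 335 kb upstream at chr9:46266058-46276057 with the starts of Apoa5 and Zpr1, with 17 pairs against 6.19. Cnn1, Myl9 and Actg2 had none; their best bins by p held 3, 4 and 2 pairs, below the minimum of 10.

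**Figure D4:**
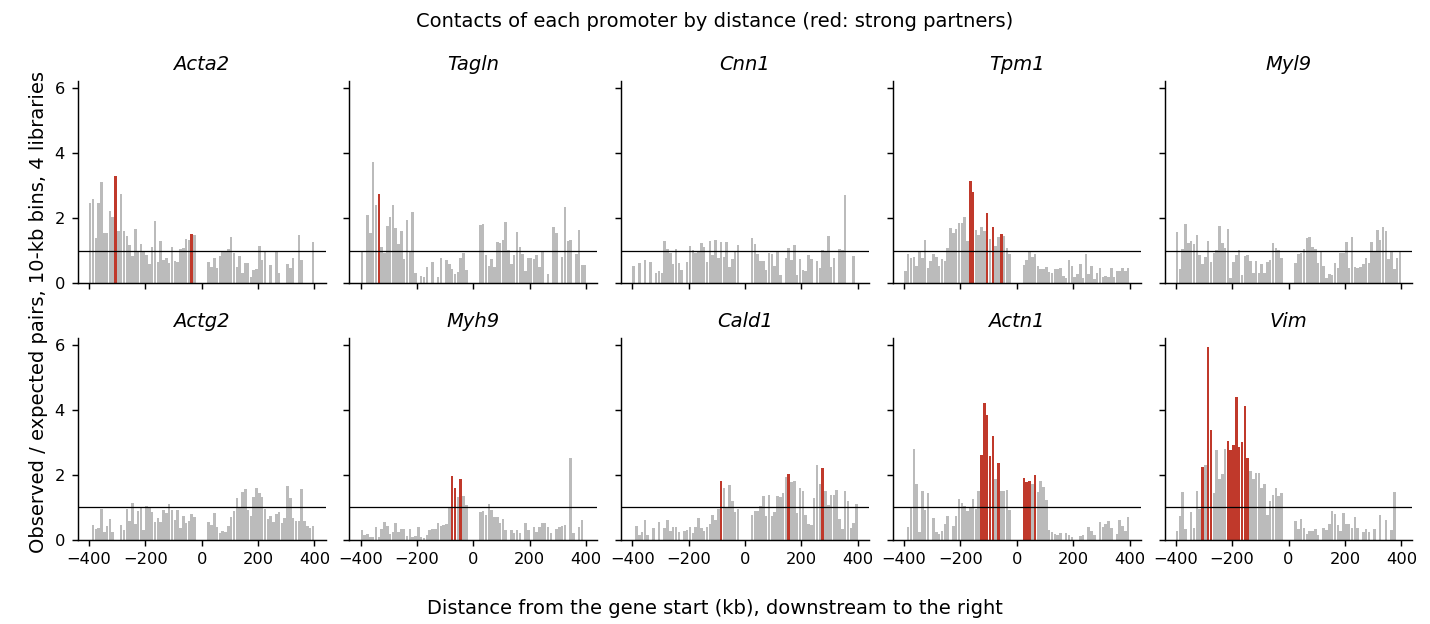
Pairs observed over expected in 10-kb bins within 400 kb of each gene start, pooled over the 4 libraries, with transcription to the right and strong partners in red. Red bins crowd upstream of Vim, Tpm1 and Actn1, and there is none at Cnn1, Myl9 or Actg2.

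The comparison of TGFB1 with Control asks what TGFB1 did to these promoters within 4 h. Each promoter's ratio was set against the median ratio over coding promoters and tested by a two-sided exact binomial test with Benjamini-Hochberg adjustment over all promoters; the test compares 2 libraries, not conditions, and a call needs an adjusted p of at most 0.05 and a change of at least 1.5-fold. For pair ends no member was called, where 0.583% of coding promoters were called lower and 2.76% higher. The median log2 ratio of the members was -0.10. Myh9 had the lowest, at -0.51 (-0.71 to -0.32, exact binomial adjusted p = 8.21e-05), under the fold of a call. Acta2 was at -0.09 (-0.34 to 0.16) and Vim at 0.00 (-0.18 to 0.18), and Tagln, Cnn1 and Actg2 at 0.44, 0.46 and 0.59, with adjusted p of 0.083, 0.081 and 0.083 by the same exact test.

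Contacts gave no call between TGFB1 and Control either, with 0.153% of promoters lower and 0.939% higher. Actn1 at -0.45 (-0.68 to -0.23) and Tpm1 at -0.38 (-0.56 to -0.19) had the lowest ratios, with adjusted p of 0.0064 and 0.0049 in the exact binomial test but less than 1.5-fold. Acta2 was at -0.11 (-0.38 to 0.15), an interval that leaves room for a modest change in either direction.

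TGFB1+miR-9-LOF against TGFB1 asks how the antagomiR against miR-9 altered the TGFB1-treated cells. Vim fell by 0.62 on the log2 scale in pair ends (interval -0.85 to -0.40, exact binomial adjusted p = 1.29e-06), the only member called, against 4.09% of promoters lower and 5.2% higher. Vim was not called with windows of 1 or 5 kb. Actn1 at -0.57, Tpm1 at -0.49 and Acta2 at -0.43 had adjusted p of 6.38e-05, 0.00067 and 0.023 by this exact test without reaching 1.5-fold, and the median member stood at -0.40. In contacts Actn1 fell by 0.82 (-1.12 to -0.52, exact binomial adjusted p = 1.30e-05), again the only member, against 0.685% of promoters lower and 0.944% higher. Acta2 stood at 0.03 (-0.26 to 0.32) and Vim at -0.28 (-0.56 to -0.0012) in contacts.

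In miR-9-LOF against Control, the same question without TGFB1, Myh9 fell by 0.88 in pair ends (-1.08 to -0.69, exact binomial adjusted p = 1.10e-18) and Vim by 0.65 (-0.85 to -0.46, adjusted p = 8.19e-11). These were 2 of 10 members, where 14.3% of promoters were lower and 15.1% higher. Closest under the fold were Actn1 at -0.58 and Tpm1 at -0.54, with adjusted p of 6.29e-09 and 6.75e-08 by this exact test. In contacts Actn1 fell by 0.63 (-0.84 to -0.41, exact binomial adjusted p = 1.38e-07) and Vim by 0.60 (-0.85 to -0.36), where 4.24% of promoters were lower and 10.7% higher. Myh9 at -0.57 and Tpm1 at -0.52 came closest under the fold, with exact binomial adjusted p of 3.57e-07 and 9.01e-08. Acta2 was at -0.46 (-0.71 to -0.22) in pair ends and -0.14 (-0.39 to 0.11) in contacts. This comparison shares the Control library with the first, and the second shares TGFB1 with it. The 2 contact calls were lost with windows of 25 kb and at a mapping quality of at least 30, and the call of Vim when each pair of restriction fragments was counted once.

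The members called lower, Myh9, Vim and Actn1, were all marked in Control. The marked promoters as a whole were also lower, though they were chosen by their ends in Control, which is part of the first and the last comparison. Their median log2 ratio was lower than that of all coding promoters by 0.20, 0.41 and 0.56 in pair ends and by 0.19, 0.26 and 0.40 in contacts, in the order of the comparisons above. Of the 4165 marked promoters, 12.5% were called lower in pair ends and 1.97% in contacts between TGFB1+miR-9-LOF and TGFB1, and 45.0% and 14.8% between miR-9-LOF and Control. Set against the marked promoters, no member was called lower in any of the 6 comparisons, where 0.0539%, 0.0196% and 0.0774% of coding promoters were in pair ends and 0.0239%, 0.00479% and 0.0286% in contacts. In pair ends Vim then stood at -0.22 between TGFB1+miR-9-LOF and TGFB1 and at -0.09 between miR-9-LOF and Control. Myh9 stood at -0.32 (-0.52 to -0.13, exact binomial adjusted p = 0.0026) between miR-9-LOF and Control. Between TGFB1 and Control it stood at -0.31 (-0.51 to -0.12, exact binomial adjusted p = 0.025), both under 1.5-fold. Actn1 contacts between TGFB1+miR-9-LOF and TGFB1 stayed lowest, at -0.56 (exact binomial adjusted p = 0.0047), just under 1.5-fold.

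On that scale the weakly marked members were called higher instead. Tagln, Cnn1 and Actg2 were higher in pair ends in TGFB1 than in Control, at 0.65, 0.66 and 0.79, where 8.33% of coding promoters were. Actg2 was higher in TGFB1+miR-9-LOF than in TGFB1, as were 28.1% of promoters, and Tagln and Actg2 in miR-9-LOF than in Control, as were 45.3%. In contacts Actg2 was higher in miR-9-LOF than in Control, as were 35% of promoters, and no member was in the other comparisons, where 6.02% and 11.2% were. Of the 4165 marked promoters 1, 5 and 5 were called higher in pair ends on this scale, so the higher calls lay almost wholly in promoters that were not marked, as these 3 members were not. Which of the references is nearer to the cells was not tested.

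**Figure D5:**
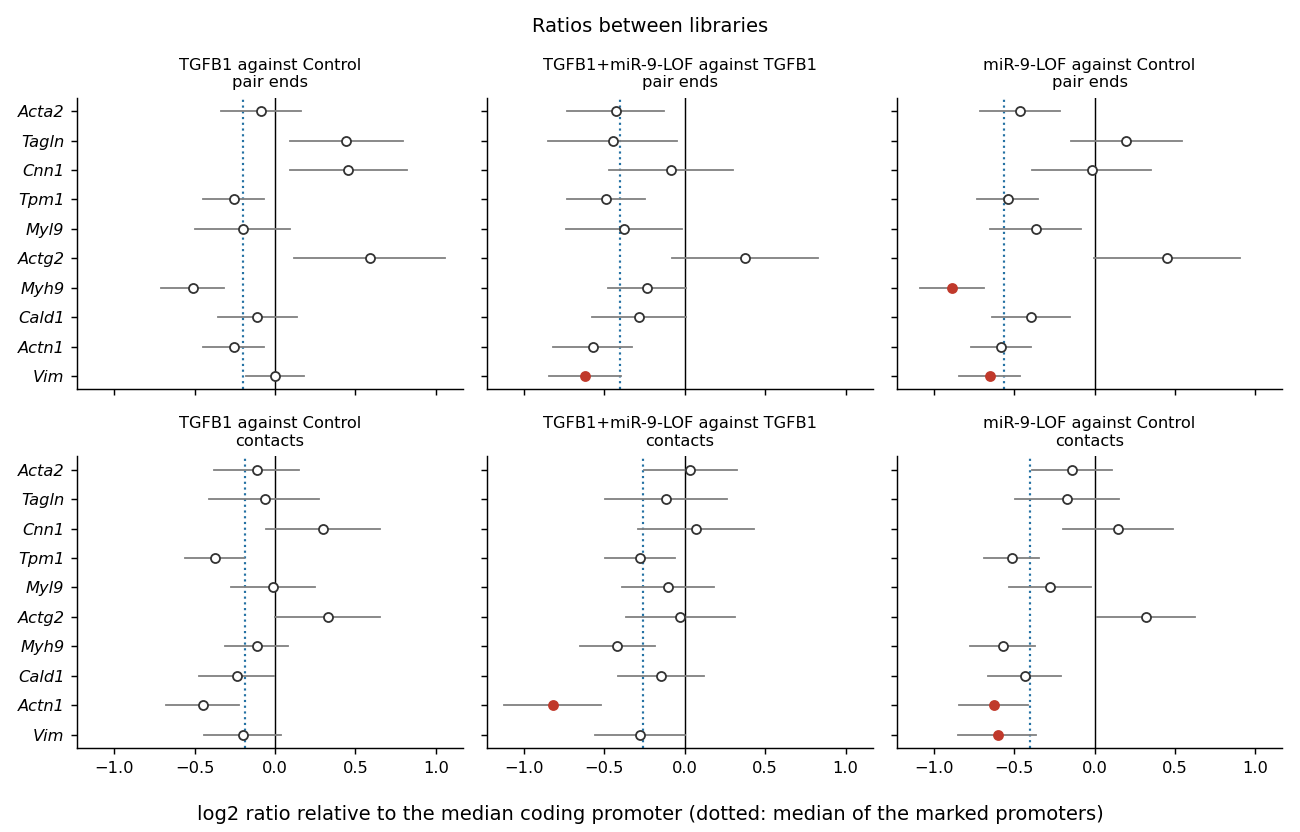
log2 ratios of the 10 members in 3 comparisons, relative to the median coding promoter, for pair ends (top) and contacts (bottom). Bars are 95% exact binomial intervals, filled points are calls, and the dotted line is the median of the marked promoters; Vim and Myh9 are called in pair ends and Actn1 and Vim in contacts, all lower.

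Whether the ratio of TGFB1 to untreated cells differed with the antagomiR was tested as a ratio of ratios over the 4 counts (Wald test, counting error only). No member passed, where 64 of 18237 promoters did in pair ends and 25 of 20262 in contacts. Myh9 came closest in pair ends, with a log2 difference of 0.58 (SE 0.16), and Tagln had -0.71 (SE 0.26) in the other direction. The adjusted p of Myh9 was lowest of the members, over 0.05, and rose against the marked promoters and at a mapping quality of 30. Actn1 had -0.06 (-0.36 to 0.25) in pair ends and -0.22 (-0.58 to 0.14) in contacts, and Acta2 -0.03 (-0.42 to 0.35) and 0.15 (-0.22 to 0.52).

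Of 30 further genes of the actin cytoskeleton and contraction, 14 were marked in Control, with a median level of 2.92 against 3.73 for the members. Myh10, a second nonmuscle myosin heavy chain, had the highest level at 20.1, followed by Tln1 (talin, 14.5), Cnn2 (a calponin of nonmuscle cells, 10.8) and Zyx (zyxin, 9.98). Mylk, the kinase of the myosin light chain, Synpo2, Pln and Nexn were lowest, at 0.61, 0.52, 0.23 and 0.09. Of 15 regulators 9 were marked, led by Tead1 (9.50), Ppp1r12a (8.86), Smad3 (7.59) and Mylip (6.25), and Ppp1cb, Rock2, Rock1 and Myocd were lowest, at 2.16, 1.16, 0.99 and 0.91. Srf, the serum response factor gene, had a level of 6.24.

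Calls in these lists are to be read against the shares over all coding promoters. Between TGFB1 and Control 1 of the 29 tested was called lower in pair ends (Tagln2, -0.59) and none of the 15, where 0.583% of coding promoters were. Between TGFB1+miR-9-LOF and TGFB1, 2 of the 29 tested were lower in pair ends, with Cnn2 (-0.70) among them, and Myh14 was higher (0.95). Of the 15 regulators 3 were lower, namely Srf (-0.78), Ppp1r12a (-0.69) and Klf4 (-0.68). Of all coding promoters 4.09% were lower and 5.2% higher there, and of the marked ones 12.5% were lower. In contacts no gene of these lists was called, where 0.685% of coding promoters were lower and 0.944% higher. Between miR-9-LOF and Control 8 of the 29 tested were lower in pair ends, where 14.3% of all coding promoters and 45.0% of the marked ones were, with Myl12a (-0.90), Lpp (-0.89), Myh10 (-0.87) and Zyx (-0.77) farthest, and 6 of the 15, with Mrtfb (-0.91), Klf4 (-0.82), Foxo1 (-0.81) and Tead1 (-0.75) farthest. In contacts, where 4.24% of all coding promoters and 14.8% of the marked ones were lower, 5 of the 30 were, with Myh10 (-0.70), Tpm2 (-0.69), Cnn2 (-0.66) and Myl12a (-0.65) farthest, and 4 of the 15, namely Tead1 (-0.69), Klf4 (-0.66), Foxo1 (-0.61) and Srf (-0.61). Against the marked promoters all of these lower calls were lost, while Myh14 was still called higher, as were 28.1% of coding promoters on that scale.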

How the data were processed

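Cross-linked chromatin was cut with MboI, ligated, precipitated with an H3K4me3 antibody and sequenced. The authors aligned reads to mm10 with HiC-Pro, as the submitters' processing notes also name, removed duplicates and deposited valid pairs. Deposited values are positions of both ends and the aligner's mapping quality score, used here only as a filter. Ends and pairs were counted and tested in numpy 2.4.6, pandas 2.3.3 and scipy 1.17.1 under Python 3.11.15, and plotted in matplotlib 3.10.9. Starts came from GENCODE vM21. Windows, thresholds and tests are given where first used; promoters with at least 20 counts in the sum were tested. Procedures were tested on simulated data. The 10 members and the lists were chosen with earlier results of these data known. All members were named, with the places of at most the 3 strongest partners of each (further strong partners are counted). Of the lists the 4 highest, the 4 lowest and at most 4 called per comparison were named. The second Myl12b entry, a readthrough, was left out, and the result of 1 list gene is not reported here. Alternatives were windows of 1, 5 and 25 kb, a mapping quality of 30, the transcript start with most ends, a smallest distance of 50 kb, fragment pairs counted once, ends per MboI site, ends of short pairs left out, and the marked promoters as reference.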

Additional observations from a re-analysis of the deposited data

How the results depend on the processing

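No paired analysis was possible because there was 1 library per condition, and replicates could not be left out. The median level of the members in Control, 3.73, was 4.95 in windows of 1 kb, 3.08 in windows of 5 kb and 4.95 per MboI site, and did not leave its counting interval at a mapping quality of 30, at the strongest transcript start or without short pairs. The median contacts, 2.10, were 2.80 in windows of 5 kb and moved little otherwise. In pair ends, 1 member (Cnn1, higher) was called between TGFB1 and Control with windows of 1 kb, and 3 against the marked promoters. Between TGFB1+miR-9-LOF and TGFB1, 0 were called with windows of 1 kb, 2 with windows of 5 kb (Tpm1 and Actn1, not Vim) and 3 at the strongest transcript start; between miR-9-LOF and Control, 4 with windows of 5 kb. In contacts, Actn1 was called between TGFB1+miR-9-LOF and TGFB1 under every alternative but the marked promoters, which gave 0. Between miR-9-LOF and Control, windows of 25 kb and a mapping quality of 30 gave 0 calls, fragment pairs counted once gave 1 (Actn1, lower), and the marked promoters gave 1 (Actg2, higher) with neither lower call kept. Strong partners numbered 35, 41 in bins of 20 kb, 35 at a mapping quality of 30, of which 34 were shared, and 12 in Control alone. No call changed direction. Of 360 values of single members in these comparisons, 331 kept their side of the threshold, 16 gained a call and 13 lost it. The 331 include members called in neither setting, so the 13 are to be read against the few calls of the main setting. Of the levels of single members in Control, 47 left their counting interval under an alternative and 73 did not. The causes were not tested. At 74 to 99 ends in Actg2 the intervals of its ratios spanned more than 1.5-fold.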
